A study of Saccharomyces cerevisiae with 10 samples.

Results

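The first 0.5 h after a yeast culture was moved from glucose to ethanol was described by comparing the 2 arrays taken 0.5 h after the shift with the 2 arrays taken at the shift itself (0 h). These are 4 of the 10 arrays of a time course that also holds 2 arrays each at 1, 4 and 12 h. All genes named in the deposited table were included, each through its brightest probe set, which gave 5449 genes from 5716 probe sets. Values are RMA intensities on a linear scale. Each gene is given with its intensity on both arrays of either time, followed by the log2 fold change of 0.5 h over 0 h and its standard error (SE) from limma.

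Both groups came from 1 pool of diploid Saccharomyces cerevisiae strains of the S288c background, built for a barcoded protein-fragment complementation assay (PCA). In this assay each strain carries its own DNA barcode and a pair of proteins fused to fragments of a methotrexate-resistant dihydrofolate reductase (mDHFR), so that a strain grows in methotrexate only where its proteins meet. The 0.5 h group had spent that time at 30 °C in shaken minimal medium with 2% ethanol and methotrexate. The 0 h group was harvested at the transfer, after growth in minimal medium with 2% dextrose. The sources differ on whether the dextrose culture already held methotrexate, so the change of carbon source, the transfer itself and a possible start of methotrexate cannot be told apart. The values are averages over a mixed pool of tagged strains. By their labels the arrays of a time are biological replicates, but no source says that they came from separate cultures, so the p-values measure the spread between arrays, which may be technical.

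Glucose is fermented by budding yeast even in air, and while it is present the genes for respiration and for other carbon sources are repressed. Ethanol is oxidised through acetaldehyde and acetate to acetyl-CoA, which is burned in mitochondria or turned into sugar by the glyoxylate cycle and gluconeogenesis. The kinase Snf1 is needed to lift glucose repression, whereas protein kinase A is active in glucose and promotes the making of ribosomes.

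At 0.5 h 1642 of the 5449 genes (30.1%) passed the test at an adjusted p under 0.05 with a higher value than at 0 h and 1784 (32.7%) with a lower value, and these shares are the background for every gene list below. A gene is said to rise or fall only where it passed this test. The median log2 change was −0.05, with quartiles of −0.81 and 0.70. Rises reached further than falls, with 122 genes higher and 49 lower by at least 8-fold, and 32 higher and 0 lower by at least 32-fold. Of those 32 genes, 27 were among the dimmest 25% of probe sets at 0 h. Of the 49 genes lower by at least 8-fold, 37 were among the dimmest 25% at 0.5 h. At such levels a fold depends on how background was removed, for rises and falls alike. Replicates correlated at r = 0.985 at 0.5 h and r = 0.984 at 0 h across genes, which are not independent. The median intensity of the 10 arrays lay between 316 and 351, so that a change in total mRNA per cell cannot be seen in these scaled values.

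**Figure D1:**
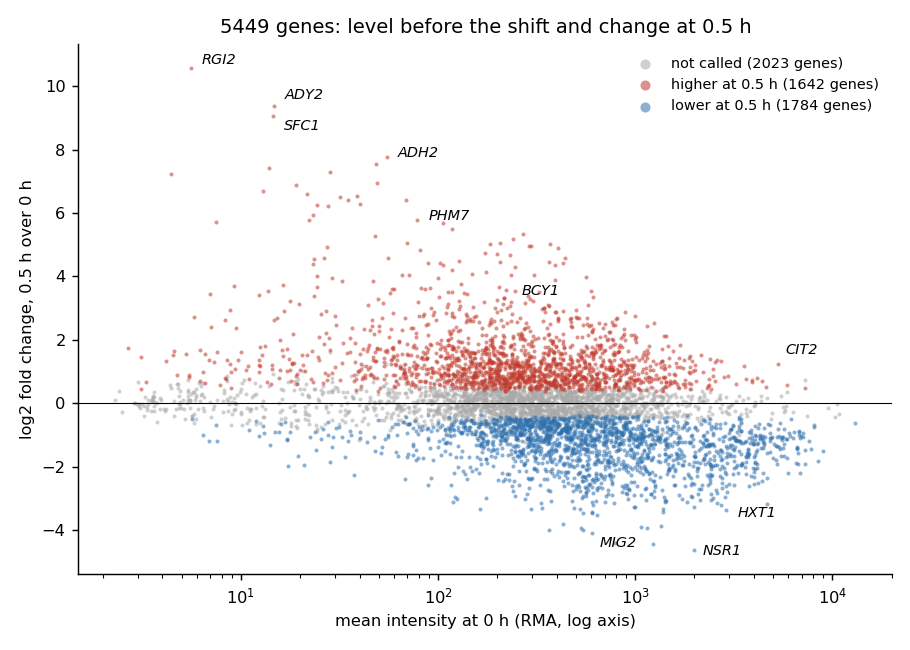
Each point is 1 of 5449 genes, with its mean intensity at 0 h (log axis) against its log2 fold change at 0.5 h over 0 h, coloured by the limma call. The tallest rises, up to a fitted 10.57 for RGI2, which was at the level of absent genes at 0 h, start from the dimmest genes on the left, whereas the deepest falls, down to −4.63 for NSR1, start from genes in the middle and right of the range.

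The labelled cell type was checked through haploid-specific genes, which diploid cells keep off. The 13 markers, among them the mating factor receptors STE2 and STE3, read between 13.3 and 221 at 0.5 h and between 12.9 and 282 at 0 h. All were below the median intensity of an array, but the highest at 0 h was above the lower quartile of all genes, 162. All were also above the levels of URA3 and LEU2 given below, so these values do not show that the markers were off. Their summed intensity was 1230.3 and 1117 on the 0.5 h arrays, against 1819 and 1562 on the 0 h arrays. The markers URA3 and LEU2, which BY strains of this background lack, stayed between 3.31 and 8.10 at 0.5 h and between 3.51 and 6.92 at 0 h. HIS3, which such strains carry with an internal deletion, was bright, with 1375 and 1203 at 0.5 h, against 4392 and 3684 at 0 h (−1.65 ± 0.23).

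The steepest rises were in genes that were barely detected before the shift. RGI2, a gene needed for energy metabolism in respiring cells, read 9476 and 7550.2 at 0.5 h, against 5.38 and 5.75 at 0 h. Its arrays at 0 h were within the range of URA3 and LEU2, which the strains lack, so its fold has no measured base. Against the highest intensity of URA3 and LEU2, 8.10, its log2 change was at least 10.03, and the fitted value was 10.57 ± 0.19 (adjusted p = 2.23e-09). ADY2, the main acetate importer, read 10245 and 8527 at 0.5 h, against 19.3 and 10.3 at 0 h (9.37 ± 0.26, adjusted p = 3.1e-08). SFC1, the mitochondrial carrier that exchanges succinate for fumarate, read 7586 and 7258 at 0.5 h, against 19.1 and 10.2 at 0 h (9.06 ± 0.26, adjusted p = 3.1e-08). In each of these genes both arrays of 0.5 h were among the brighter values of the table and both arrays of 0 h were far below the lower quartile of all genes, 162. ADH2, the alcohol dehydrogenase that consumes ethanol, read 12432 and 8141 at 0.5 h, against 83.8 and 25.9 at 0 h (7.75 ± 0.44). MLS1, the malate synthase of the glyoxylate cycle, read 8670.1 and 7961 at 0.5 h, against 66.5 and 29.9 at 0 h (7.54 ± 0.31). POT1, the thiolase of peroxisomal fatty acid oxidation, read 3373 and 1202 at 0.5 h, against 21.0 and 6.70 at 0 h (7.41 ± 0.58). Its arrays at 0.5 h lay further apart than those of the other genes given here.

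The proline permease PUT4 came next, with 4368 and 4466 at 0.5 h, against 31.4 and 25.3 at 0 h (7.29 ± 0.20, adjusted p = 3.1e-08). The other genes among the 15 largest rises were YMR206W (at least 6.35 by the same measure as for RGI2), ATO2 (6.95), which codes for a relative of the ADY2 transporter, YIG1 (6.88), SPG1 (6.70), FAT3 (6.60), which takes part in fatty acid uptake, BOP2 (6.54), YGR067C (6.50) and YNL195C (6.41). With 32 added to every intensity before the log, which damps changes of dim genes, the log2 change of RGI2 was 7.82 and that of ADY2 was 7.65, both still past the threshold.

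The steepest falls were led by a gene of ribosome assembly and a gene of glucose repression. NSR1, the yeast nucleolin, read 58.9 and 108 at 0.5 h, against 1767 and 2214 at 0 h (−4.63 ± 0.30, adjusted p = 4.5e-06). MIG2, a repressor that works beside MIG1 in glucose, read 41.8 and 77.6 at 0.5 h, against 1093 and 1382 at 0 h (−4.43 ± 0.39, adjusted p = 1.63e-05). Adenine deaminase, AAH1, read 33.4 and 39.9 at 0.5 h, against 612 and 972 at 0 h (−4.40 ± 0.35, adjusted p = 9.47e-06). All 3 were above the median intensity on both arrays of 0 h and far below it on both arrays of 0.5 h.

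The other 12 of the 15 largest falls are given with their known roles. RIX1 (−4.10) and DRS1 (−3.45) serve assembly of the large ribosomal subunit, SYO1 (−3.46) brings ribosomal proteins into the nucleus, BMT6 (−4.01) methylates the RNA of the large subunit, NAF1 (−3.94) assembles box H/ACA small nucleolar particles, AIR1 (−3.91) belongs to the TRAMP complex of nuclear RNA surveillance, DBP2 (−3.95) is an RNA helicase and RPA49 (−3.51) is a subunit of RNA polymerase I. PFK27 (−4.01), which makes the glycolytic activator fructose 2,6-bisphosphate, the CTP synthase URA7 (−3.88), the exporter AQR1 (−3.81) and the kinase ALK1 (−3.44) were the others.

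**Figure D2:**
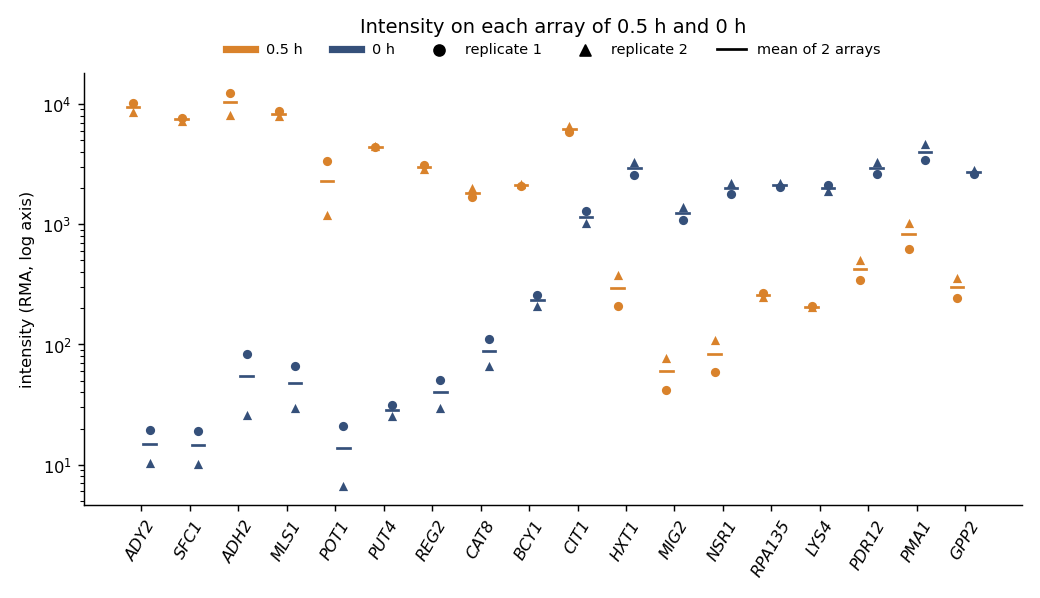
Intensity (log axis) of 18 genes on each array, 0.5 h on the left and 0 h on the right of each gene, with replicate 1 as a circle, replicate 2 as a triangle and a line at the mean of 2 arrays. The 2 times do not overlap in any of the 18 genes, nor in 4484 of all 5449 genes. The largest rises and falls were chosen among genes without overlap, so for those genes the selection fixed this result. For ADH2, MLS1 and POT1 the arrays of 0 h differ by more than 2-fold.

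Most genes on the route from ethanol to acetyl-CoA rose. Of 9 measured genes for the oxidation of ethanol and acetate, 6 rose and 2 fell (median log2 change 4.59). ACS1, an acetyl-CoA synthetase, read 11157 and 10754 at 0.5 h, against 297 and 243 at 0 h (5.35 ± 0.21, adjusted p = 3.15e-07). ACH1, which moves the CoA group onto acetate in mitochondria, read 7719.7 and 9627 at 0.5 h, against 283 and 199.6 at 0 h (5.18 ± 0.24). The acetaldehyde dehydrogenase ALD6 read 5007 and 5264 at 0.5 h, against 229 and 171 at 0 h (4.70 ± 0.18). In these 3 genes the 2 times were far apart beside the gap between replicates. The genes that fell were ALD5, with 1384 and 1655 at 0.5 h, against 5127 and 5290.2 at 0 h (−1.78 ± 0.15), and ADH5 (−0.63 ± 0.22), both homologs of enzymes of the route. The call on ADH5 was lost without replicate 1 of 0 h (adjusted p = 0.156), without replicate 2 of 0.5 h (adjusted p = 0.203) and with quantile normalization (adjusted p = 0.0655).

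All 9 measured genes of acetate and lactate uptake and of the carnitine shuttle rose, with a median of 4.43. The shuttle carries acetyl groups into mitochondria. Its acetyltransferase CAT2 read 6598 and 6721 at 0.5 h, against 250.3 and 162 at 0 h (5.05 ± 0.22). The related YAT1 read 8896 and 9123 at 0.5 h, against 357 and 236 at 0 h (4.96 ± 0.23). The carrier CRC1 read 7552 and 6632 at 0.5 h, against 706 and 152 at 0 h (4.43 ± 0.54), with the widest gap of the list between the arrays of 0 h.

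In gluconeogenesis and the glyoxylate cycle, 9 of 10 measured genes rose and 1 fell (median 4.05). FBP1, fructose-1,6-bisphosphatase, read 2792 and 1016 at 0.5 h, against 44.0 and 11.6 at 0 h (6.22 ± 0.61, adjusted p = 2.85e-05). ICL1, the isocitrate lyase that opens the glyoxylate cycle, read 9497 and 11243 at 0.5 h, against 609 and 202 at 0 h (4.88 ± 0.43, adjusted p = 1.56e-05). In both genes the arrays of 0 h were more than 2-fold apart, and those of 0.5 h stood well clear of them. The exception was PYC2, a pyruvate carboxylase, with 1111 and 1352 at 0.5 h, against 2816 and 2742 at 0 h (−1.18 ± 0.17). The peroxisomal citrate synthase CIT2 rose least of the genes named here, by 1.22 ± 0.24.

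Genes of mitochondrial respiration were mostly higher. In the TCA cycle 15 of 17 measured genes rose and 1 fell (median 2.15). CIT3, a citrate synthase, read 4483 and 4163 at 0.5 h, against 236 and 112 at 0 h (4.73 ± 0.41). The succinate dehydrogenase subunit SDH1 read 3437 and 4037 at 0.5 h, against 341 and 312 at 0 h (3.51 ± 0.17). Aconitase, ACO1, read 4167 and 4808 at 0.5 h, against 757 and 767 at 0 h (2.55 ± 0.15). The 2 times were several-fold apart in each. IDP1, the NADP-dependent isocitrate dehydrogenase of mitochondria, was the gene that fell (−0.68 ± 0.16).

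For complexes III and IV of the respiratory chain, 19 of 20 genes rose (median 1.51). RIP1, the Rieske iron-sulfur protein of complex III, read 2482 and 3047 at 0.5 h, against 292 and 397 at 0 h (3.01 ± 0.19). COX4 of complex IV read 2838 and 3300.2 at 0.5 h, against 539 and 678 at 0 h (2.34 ± 0.30). The member that fell was COX5B, the form of subunit 5 used when oxygen is low, with 630.0 and 673 at 0.5 h, against 1412 and 929.6 at 0 h (−0.81 ± 0.27). Its call was lost without replicate 1 of 0 h (adjusted p = 0.174), without replicate 1 of 0.5 h (adjusted p = 0.0928) and without replicate 2 of 0.5 h (adjusted p = 0.0639). All 14 genes of the ATP synthase rose (median 1.17), led by ATP3 (2.04 ± 0.15) and ATP16 (2.02 ± 0.18).

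Dehydrogenases that feed electrons to the chain rose in 6 of 8 cases with 0 lower (median 2.55). The external NADH dehydrogenase NDE2 read 6240.4 and 5056 at 0.5 h, against 316 and 151 at 0 h (4.69 ± 0.29). The glycerol-3-phosphate dehydrogenase GUT2 read 6207 and 6241 at 0.5 h, against 666 and 563 at 0 h (3.35 ± 0.16). NDI1, which takes the place of complex I in yeast, read 1570.0 and 2269 at 0.5 h, against 195 and 204 at 0 h (3.24 ± 0.24).

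Mitochondrial ribosomal proteins moved by less: 65 of 70 rose and 0 fell, with a median of 0.99. PET123, a small subunit protein, read 692 and 725 at 0.5 h, against 187 and 188 at 0 h (1.92 ± 0.29). MRPL1 of the large subunit read 335 and 449 at 0.5 h, against 137 and 111 at 0 h (1.65 ± 0.19). In mitochondrial protein import 17 of 29 rose and 2 fell (median 0.56). The motor subunit PAM17 (1.45 ± 0.16) and the chaperonin HSP60 (1.33 ± 0.16) were at the head, and TIM22, the channel for carrier proteins, fell (−0.66 ± 0.15). The number of import genes called higher was 10 without replicate 2 of 0.5 h. Coenzyme Q and heme genes rose in 11 and fell in 2 of 21 cases, with ferrochelatase, HEM15, at 828 and 1231 at 0.5 h, against 203 and 190.5 at 0 h (2.36 ± 0.25).

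Mitochondrial carriers and porins were called in both directions, 13 higher and 15 lower of 32 (40.6% and 46.9%, median −0.25). The genes named next all rose, although more members fell than rose and log2 changes of the list reached down to −2.24. Beside SFC1 and CRC1, the pyruvate carrier subunit MPC3 rose, with 7032 and 6967 at 0.5 h, against 542 and 192 at 0 h (4.44 ± 0.38). The oxodicarboxylate carrier ODC1 read 1723 and 1369 at 0.5 h, against 228 and 159.8 at 0 h (3.01 ± 0.22). The main ADP/ATP carrier PET9 rose by 1.30 ± 0.15. The count of falls was 9 without replicate 1 of 0 h and also 9 without replicate 2 of 0.5 h.

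Genes of peroxisomal fatty acid oxidation rose in 16 and fell in 1 of 18 measured genes (median 2.88). The labels name no fatty acid in the medium. CTA1, the peroxisomal catalase, read 2549 and 1188 at 0.5 h, against 31.9 and 16.6 at 0 h (6.24 ± 0.45). SPS19, an auxiliary reductase for unsaturated chains, read 1806 and 855 at 0.5 h, against 76.3 and 35.2 at 0 h (4.58 ± 0.42). PXA1, a subunit of the transporter that brings fatty acids in, read 2650.3 and 1737 at 0.5 h, against 124 and 80.4 at 0 h (4.43 ± 0.31). In these 3 genes replicate 1 stood above replicate 2 at both times, and the lower array of 0.5 h was still far above the higher array of 0 h. ANT1, which exchanges ATP for AMP across the peroxisomal membrane, fell, with 236 and 169 at 0.5 h, against 649 and 495 at 0 h (−1.51 ± 0.27).

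The peroxins, which build the organelle, rose in 9 of 24 cases (37.5%, against the background of 30.1%) and fell in 2. The paralogs PEX18 and PEX21, both co-receptors for import by the PTS2 signal, moved in opposite directions. PEX18 read 116 and 119.6 at 0.5 h, against 9.48 and 8.90 at 0 h (3.68 ± 0.32). PEX21 read 187 and 165 at 0.5 h, against 1251 and 1013 at 0 h (−2.68 ± 0.20).

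**Figure D3:**
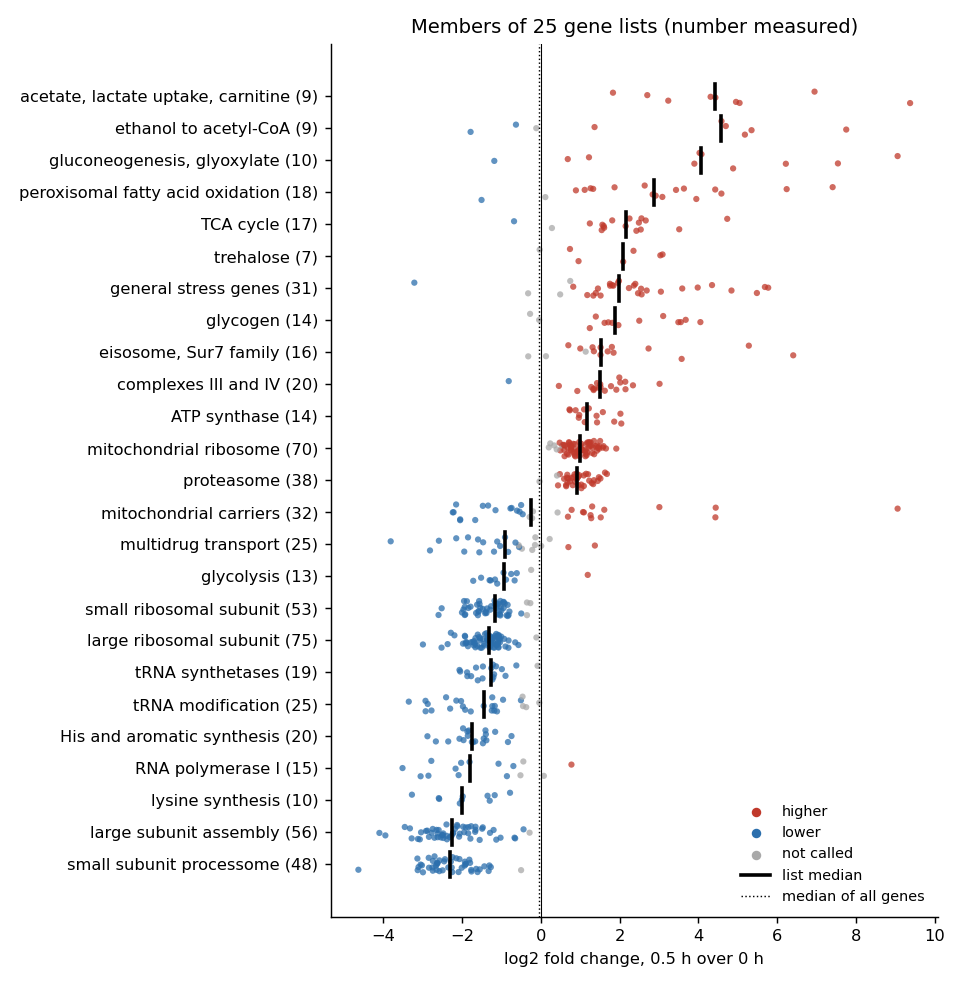
Log2 fold change at 0.5 h over 0 h of each measured member of 25 gene lists (number measured in parentheses), coloured by the limma call, with a bar at the list median and a dotted line at the median of all genes, −0.05. List medians run from 4.59 for the genes from ethanol to acetyl-CoA to −2.32 for the small subunit processome.

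The lists for the use of sugars did not move as one. In glycolysis 11 of 13 genes fell and 1 rose (median −0.95). Enolase 2, ENO2, read 1495 and 2147 at 0.5 h, against 6027 and 5748 at 0 h (−1.72 ± 0.24). The main pyruvate kinase, CDC19, read 2637 and 3780.2 at 0.5 h, against 9095 and 8971 at 0 h (−1.52 ± 0.27). In both genes the arrays of 0 h lay close together and replicate 2 of 0.5 h stood above replicate 1. ENO1 (−1.28 ± 0.22) and phosphoglucose isomerase, PGI1 (−1.30 ± 0.17), fell as well. PYK2, another pyruvate kinase, was the gene that rose, with 735 and 946 at 0.5 h, against 428 and 311 at 0 h (1.19 ± 0.39), and its call was lost without replicate 2 of 0 h (adjusted p = 0.127) and without replicate 2 of 0.5 h (adjusted p = 0.111).

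Of 6 genes for pyruvate decarboxylases and fermentative alcohol dehydrogenases, 3 fell and 1 rose. PDC1, the main pyruvate decarboxylase, read 1743 and 2912 at 0.5 h, against 6246 and 7169.6 at 0 h (−1.57 ± 0.26). ADH4 (−1.24 ± 0.16) and PDC2, an activator of decarboxylase genes (−0.62 ± 0.16), fell with it. PDC6, a minor decarboxylase, rose, with 149 and 192 at 0.5 h, against 119.8 and 94.0 at 0 h (0.67 ± 0.19), and its call was lost without replicate 2 of 0 h (adjusted p = 0.0842) and without replicate 2 of 0.5 h (adjusted p = 0.0925).

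Hexose kinases split, with 3 of 4 higher and 1 lower. GLK1, glucokinase, read 6765 and 7139 at 0.5 h, against 677 and 520.5 at 0 h (3.55 ± 0.20). EMI2, a glucokinase homolog, read 714 and 1276 at 0.5 h, against 135 and 90.0 at 0 h (3.11 ± 0.37). HXK1 read 937 and 2083 at 0.5 h, against 254 and 144 at 0 h (2.87 ± 0.45). These rose, whereas HXK2, the main hexokinase in glucose, fell, with 846 and 1206 at 0.5 h, against 1653 and 2023 at 0 h (−0.86 ± 0.21). The call on HXK2 was lost without replicate 1 of 0.5 h (adjusted p = 0.0517).

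Hexose transporters were also divided, with 6 of 15 higher and 3 lower. HXT1, a low-affinity transporter, read 209 and 376 at 0.5 h, against 2547 and 3268 at 0 h (−3.36 ± 0.38). HXT3, another of low affinity, read 444 and 608 at 0.5 h, against 4499 and 4828 at 0 h (−3.17 ± 0.23). HXT4 read 76.4 and 82.0 at 0.5 h, against 509.6 and 408 at 0 h (−2.53 ± 0.20). These 3 were the members that fell, and in each of them the times were far apart. HXT5, a transporter of slow-growing cells, rose, with 4453 and 4414 at 0.5 h, against 241 and 169.9 at 0 h (4.45 ± 0.25). HXT7 read 943 and 1102 at 0.5 h, against 382 and 159.8 at 0 h (2.04 ± 0.33), but its probe set is shared with other sequences, so which gene rose is uncertain. GAL2, HXT9, HXT11 and HXT17 were also called higher, at intensities of 17.1 to 48.8 at 0.5 h. The probe set of HXT17 is shared too, and without shared probe sets 4 transporters were called higher. At 0 h GAL2 was at the level of URA3 and LEU2. Without the dimmest 25% of genes, which left 5 transporters, 2 were called higher. HXT2, of high affinity, was not called (161 and 248 at 0.5 h, against 189.6 and 69.6 at 0 h). HXT8, HXT10, HXT13, HXT14 and HXT15 were dim at both times and not called. Genes for galactose, sucrose and maltose use rose in 6 and fell in 1 of 10 cases, and 3 of the 4 left without the dimmest 25% of genes were called higher. The galactose sensor GAL3 read 333 and 215 at 0.5 h, against 48.7 and 51.2 at 0 h (2.42 ± 0.30).

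Genes of glucose sensing gave 2 rises and 4 falls of 8. SNF3, the sensor for low glucose, read 853 and 747 at 0.5 h, against 244 and 243 at 0 h (1.71 ± 0.18). RGT1, the repressor of hexose transporter genes, read 647 and 667 at 0.5 h, against 285 and 265 at 0 h (1.26 ± 0.17). STD1, a co-repressor that the sensors send to degradation, read 103 and 125 at 0.5 h, against 279 and 301 at 0 h (−1.35 ± 0.24). The sensor and the repressor were thus higher and the co-repressor lower, as was the casein kinase YCK2, with 635 and 611 at 0.5 h, against 1199 and 1646 at 0 h (−1.17 ± 0.19).

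Genes of the Snf1 kinase rose in 8 of 11 cases, with 0 lower. REG2, a targeting subunit of the phosphatase that switches Snf1 off, rose by far the most of them, with 3118 and 2888 at 0.5 h, against 50.4 and 29.8 at 0 h (6.28 ± 0.27, adjusted p = 4.61e-07). SIP2, a β-subunit of the kinase, read 1005 and 868 at 0.5 h, against 160.1 and 121 at 0 h (2.75 ± 0.18). The catalytic subunit SNF1 itself read 942 and 1007 at 0.5 h, against 603 and 528 at 0 h (0.79 ± 0.19). The change of the catalytic subunit was small beside those of REG2 and SIP2. SNF4, the activating subunit, rose (0.81 ± 0.16), and so did REG1, the main targeting subunit of the phosphatase (0.75 ± 0.28), and GLC7, its catalytic subunit (0.66 ± 0.20). Of the other β-subunits GAL83 was called higher (0.39 ± 0.14) and SIP1 was not called (0.21 ± 0.16). The calls were lost for REG1 with only the 4 arrays of 0 and 0.5 h (adjusted p = 0.0542), without replicate 1 of 0 h (adjusted p = 0.281) and without replicate 2 of 0.5 h (adjusted p = 0.215), for GLC7 without replicate 1 of 0 h (adjusted p = 0.0896) and without replicate 2 of 0.5 h (adjusted p = 0.0746), and for GAL83 when any 1 of the 4 arrays was left out (adjusted p 0.084 to 0.153) and in the fit to 4 arrays. TOS3, an upstream kinase, was called higher (1.12 ± 0.41), whereas SAK1 (−0.24 ± 0.22) and ELM1 (−0.41 ± 0.18), which share that role, were not called. The call on TOS3 was lost without replicate 1 of 0 h (adjusted p = 0.132), without replicate 2 of 0 h (adjusted p = 0.0947) and without replicate 1 of 0.5 h (adjusted p = 0.22). The number of Snf1 genes called higher was 4 without replicate 1 of 0 h and 5 without replicate 2 of 0.5 h.

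Among 21 transcription factors of carbon source control 9 rose and 5 fell (42.9% and 23.8%). The activators of gluconeogenic and ethanol genes were at the top. CAT8 read 1669 and 1991 at 0.5 h, against 111 and 66.4 at 0 h (4.41 ± 0.27, adjusted p = 3.44e-06). SIP4, itself a target of CAT8, read 2989 and 1529 at 0.5 h, against 140.2 and 94.6 at 0 h (4.21 ± 0.31). ADR1, the activator of ADH2, read 925 and 1328 at 0.5 h, against 94.7 and 47.5 at 0 h (4.05 ± 0.35). Below them came USV1 (3.84 ± 0.34), the repressor XBP1 (3.28 ± 0.25) and GSM1 (2.73 ± 0.19). HAP4, the activating subunit of the HAP complex that drives respiratory genes, rose by less, with 1903 and 2647 at 0.5 h, against 747 and 824 at 0 h (1.52 ± 0.23). The DNA-binding subunits HAP2 (0.96 ± 0.23) and HAP3 (0.66 ± 0.25) were called higher and HAP5 was not called (−0.38 ± 0.16). The call on HAP3 was lost when any 1 of the 4 arrays was left out, with adjusted p values of 0.0767 to 0.159.

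Repressors of glucose-repressed genes differed in their mRNA. MIG3 read 94.7 and 103 at 0.5 h, against 355 and 362 at 0 h (−1.86 ± 0.14), and with MIG2 it fell. MIG1 was not called (367 and 381 at 0.5 h, against 348 and 359.6 at 0 h, 0.08 ± 0.14), nor were NRG1 (−0.10 ± 0.37) and NRG2 (0.06 ± 0.21). PIP2, an activator of oleate-induced genes, fell, with 477 and 491 at 0.5 h, against 978 and 972 at 0 h (−1.01 ± 0.16), while its partner OAF1 was not called (0.10 ± 0.18). ERT1, a regulator of gluconeogenic genes, fell, with 172 and 149.7 at 0.5 h, against 316 and 322 at 0 h (−0.99 ± 0.29), and its call was lost without replicate 2 of 0 h (adjusted p = 0.0547) and without replicate 2 of 0.5 h (adjusted p = 0.0691). OPI1, a repressor of phospholipid genes, fell, with 586 and 379.9 at 0.5 h, against 993 and 902 at 0 h (−1.0 ± 0.28), and its call was lost without replicate 1 of 0 h (adjusted p = 0.057) and without replicate 2 of 0.5 h (adjusted p = 0.0931). RDS2, another regulator of gluconeogenic genes (0.42 ± 0.17), and RSF2, a regulator of respiratory growth (−0.39 ± 0.16), were not called.

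Genes of the Ras and protein kinase A pathway were called in both directions, 9 higher and 5 lower of 18. BCY1, the subunit that holds protein kinase A inactive, read 2081 and 2160.3 at 0.5 h, against 257 and 210.5 at 0 h (3.19 ± 0.19, adjusted p = 3.44e-06). TPK2, a catalytic subunit, read 1141 and 1219 at 0.5 h, against 188 and 183 at 0 h (2.67 ± 0.22). TPK3, another catalytic subunit, read 139 and 135 at 0.5 h, against 257 and 278 at 0 h (−0.97 ± 0.18). The inhibitor and TPK2 thus rose while TPK3 fell. PDE2, the phosphodiesterase that breaks down cAMP with high affinity, read 241 and 274 at 0.5 h, against 1248 and 1916 at 0 h (−2.59 ± 0.32, adjusted p = 0.000111). RAS2 read 2117 and 3010.2 at 0.5 h, against 516 and 429 at 0 h (2.42 ± 0.30). Its paralog RAS1 went down, with 164 and 181 at 0.5 h, against 285 and 300.2 at 0 h (−0.76 ± 0.25), and the call on RAS1 was lost when any 1 of the 4 arrays was left out (adjusted p 0.055 to 0.0973). Adenylate cyclase, CYR1, which makes cAMP, rose, with 756 and 921 at 0.5 h, against 374 and 476 at 0 h (0.99 ± 0.25), and its call was lost without replicate 1 of 0 h (adjusted p = 0.0555) and without replicate 2 of 0.5 h (adjusted p = 0.0524). PDE1, the phosphodiesterase of low affinity, fell (−0.68 ± 0.20), and its call was lost without replicate 1 of 0 h (adjusted p = 0.0678) and without replicate 1 of 0.5 h (adjusted p = 0.0876). Of the activators of Ras hydrolysis IRA2 rose (0.64 ± 0.17) and IRA1 was not called (0.18 ± 0.18), nor was CDC25, the exchange factor for Ras (0.08 ± 0.21). The glucose receptor GPR1 was called higher (0.54 ± 0.18), and its call was lost without replicate 2 of 0 h (adjusted p = 0.141), without replicate 1 of 0.5 h (adjusted p = 0.0531) and without replicate 2 of 0.5 h (adjusted p = 0.132). GPA2, the G protein of that receptor (1.64 ± 0.28), and GIS1, an activator downstream of the kinase (2.05 ± 0.32), rose. The kinase YAK1, which protein kinase A opposes, was called higher (0.68 ± 0.20), and its call was lost without replicate 2 of 0 h (adjusted p = 0.0605) and without replicate 1 of 0.5 h (adjusted p = 0.101), whereas RIM15, which it also opposes, was not called (0.45 ± 0.19). Of the stress activators that the kinase keeps out of the nucleus, MSN4 fell, with 64.3 and 91.4 at 0.5 h, against 223 and 247 at 0 h (−1.61 ± 0.22), and MSN2 was not called (0.13 ± 0.15).

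Genes for making ribosomes were mostly lower. Of the ribosomal protein genes, 74 of 75 fell for the large subunit (median −1.31) and 49 of 53 for the small subunit (median −1.17), with 0 higher in either. RPL22B fell the most, with 290.1 and 338 at 0.5 h, against 2418 and 2573 at 0 h (−2.99 ± 0.19). RPS26B read 424 and 543 at 0.5 h, against 2868 and 2933 at 0 h (−2.60 ± 0.24). RPL8A read 587 and 906 at 0.5 h, against 3780.0 and 4631 at 0 h (−2.52 ± 0.23). Each of these has a paralog elsewhere in the genome, whose transcripts the probes may share in part.

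Assembly factors had larger median falls than the ribosomal proteins. In the small subunit processome 47 of 48 genes fell (median −2.32), and in large subunit assembly 55 of 56 (median −2.25), with 0 higher in either. Beside NSR1 the processome was led by UTP5, with 86.4 and 89.6 at 0.5 h, against 646 and 922 at 0 h (−3.13 ± 0.26), and by UTP13 (−3.13 ± 0.26) and UTP6 (−3.10 ± 0.21). MAK16, needed for the large subunit, read 14.6 and 18.2 at 0.5 h, against 152 and 174 at 0 h (−3.32 ± 0.28).

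For RNA polymerase I, which transcribes the ribosomal RNA genes, 11 of 15 genes fell and 1 rose (median −1.81). RPA135, its second largest subunit, read 266 and 247 at 0.5 h, against 2053 and 2197 at 0 h (−3.05 ± 0.36). RPA34 read 168 and 163 at 0.5 h, against 1101 and 1301 at 0 h (−2.85 ± 0.20). The initiation factor RRN3 was the gene of the list that rose, with 621 and 519.9 at 0.5 h, against 308 and 357 at 0 h (0.78 ± 0.23), and its call was lost without replicate 1 of 0 h (adjusted p = 0.0811) and without replicate 1 of 0.5 h (adjusted p = 0.0885).

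RNA polymerase III fell in 10 and rose in 1 of 22 cases (45.5% lower). RPC25 (−2.37 ± 0.32) was in front, followed by RPC19 (−2.24 ± 0.29) and RPC40 (−2.18 ± 0.18), which polymerases I and III share. Of 9 core genes of RNA polymerase II 2 were called higher and 3 lower (22.2% and 33.3%, beside the background of 30.1% and 32.7%, median 0.05). Among those lower were RPB5 (−1.18 ± 0.22) and RPB8 (−1.16 ± 0.23), which all 3 polymerases share.

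Genes of translation were lower too. Cytosolic tRNA synthetases fell in 18 of 19 cases (median −1.26), with HTS1, for histidine, at 582 and 576 at 0.5 h, against 2365 and 2482 at 0 h (−2.07 ± 0.16). tRNA modification enzymes fell in 21 of 25 (median −1.45), and PUS1, a pseudouridine synthase, read 135 on both arrays at 0.5 h, against 1347 and 1418 at 0 h (−3.35 ± 0.16). Initiation and elongation factors fell in 20 and rose in 2 of 35 cases. The fungal elongation factor YEF3 read 1174 and 1442 at 0.5 h, against 5581 and 6343 at 0 h (−2.19 ± 0.19). GCD11, the γ-subunit of initiation factor 2, went the other way, with 2888 and 3384 at 0.5 h, against 979 and 1209.8 at 0 h (1.52 ± 0.22), as did HYP2, initiation factor 5A (0.85 ± 0.14).

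Genes for making amino acids were mostly lower. All 10 lysine genes (median −1.99) and all 20 genes of histidine and aromatic amino acids (median −1.74) fell. LYS4, homoaconitase, read 209.6 and 203 at 0.5 h, against 2105 and 1889 at 0 h (−3.27 ± 0.22, adjusted p = 5.53e-06). HIS7, in histidine synthesis, read 467 and 407 at 0.5 h, against 2832 and 2702 at 0 h (−2.66 ± 0.18). ARO10, a decarboxylase that degrades aromatic keto acids rather than making them, fell as well, with 265 and 301 at 0.5 h, against 2251 and 1917 at 0 h (−2.88 ± 0.31). In the branched-chain pathway 9 of 11 fell and 1 rose. LEU9, which opens leucine synthesis, read 168 and 173 at 0.5 h, against 1415 and 1456 at 0 h (−3.07 ± 0.25). The transaminases parted: BAT1, in mitochondria, read 1578 and 2374 at 0.5 h, against 7197 and 7341 at 0 h (−1.91 ± 0.20). BAT2, in the cytosol, read 6784 and 6619.9 at 0.5 h, against 2703 and 2487 at 0 h (1.37 ± 0.20).

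Methionine, cysteine and sulfate genes fell in 24 and rose in 3 of 36 cases (median −1.31). MET1, which helps make the siroheme cofactor, read 265 and 328 at 0.5 h, against 2466 and 2760.3 at 0 h (−3.14 ± 0.47). MET16, in sulfate reduction, read 299.7 and 369.6 at 0.5 h, against 2544 and 2329 at 0 h (−2.87 ± 0.34). SAM2, which makes S-adenosylmethionine, read 268 and 422 at 0.5 h, against 1800.2 and 2105 at 0 h (−2.53 ± 0.36). The members that rose most were permeases, MMP1 for S-methylmethionine, with 937 and 667 at 0.5 h, against 116 and 105 at 0 h (2.85 ± 0.33), and MUP1 for methionine (2.16 ± 0.33).

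Arginine genes rose in 3 and fell in 7 of 12 cases, with synthesis and breakdown apart. The synthesis gene ARG2 read 332 and 219 at 0.5 h, against 1355 and 1329 at 0 h (−2.32 ± 0.26), and ARG8 fell with it (−2.03 ± 0.22). CAR1, arginase, rose, with 3225 and 2360.4 at 0.5 h, against 474 and 470.0 at 0 h (2.55 ± 0.19). CAR2, the next step of breakdown, read 2662 and 2635 at 0.5 h, against 365 and 310.3 at 0 h (2.98 ± 0.21). In ammonium assimilation and nitrogen control 5 rose and 11 fell of 20. GDH2, which breaks glutamate down, read 6906 and 6217 at 0.5 h, against 911 and 859 at 0 h (2.89 ± 0.17). GDH1, the main enzyme that makes it from ammonium, read 849 and 2369 at 0.5 h, against 3892 and 4315 at 0 h (−1.53 ± 0.42). The call on GDH1 was lost without replicate 2 of 0 h (adjusted p = 0.0534) and without replicate 1 of 0.5 h (adjusted p = 0.0681). GDH3, the other form that makes it, rose, with 1314 and 1024 at 0.5 h, against 157 and 67.7 at 0 h (3.49 ± 0.35). The ammonium permease MEP2 fell, with 359 and 413 at 0.5 h, against 2527 and 2629 at 0 h (−2.74 ± 0.27).

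Amino acid permeases rose in 9 and fell in 4 of 22 cases. TAT1, for valine, leucine and tyrosine, read 1043 and 1818 at 0.5 h, against 28.6 and 17.8 at 0 h (5.93 ± 0.35). The histidine permease HIP1 was among those that fell, with 226 and 235 at 0.5 h, against 711 and 931 at 0 h (−1.82 ± 0.17). The peptide transporter PTR2 rose (2.73 ± 0.37).

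For nucleotide synthesis falls were called in 15 of 22 purine genes and 9 of 12 pyrimidine genes, and 1 gene of each list rose. GUA1, GMP synthetase, read 232 and 265 at 0.5 h, against 1810.0 and 2082 at 0 h (−2.97 ± 0.28). BAS1, an activator of purine genes, read 375 and 274 at 0.5 h, against 1947 and 2254 at 0 h (−2.71 ± 0.28). The CTP synthases moved in opposite directions. URA7 read 87.8 and 96.3 at 0.5 h, against 1288 and 1417 at 0 h (−3.88 ± 0.34). URA8 read 1379.8 and 1277 at 0.5 h, against 307 and 333 at 0 h (2.05 ± 0.19).

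Folate and one-carbon genes fell in 14 and rose in 1 of 23 cases. MET13, a methylenetetrahydrofolate reductase, read 442 and 497 at 0.5 h, against 2104 and 2649.7 at 0 h (−2.33 ± 0.17). DFR1, the cell's own dihydrofolate reductase and the target of methotrexate, was singled out after its values were seen, and it fell, with 339 and 286 at 0.5 h, against 1059 and 759 at 0 h (−1.53 ± 0.24). CDC21, thymidylate synthase, was the gene that rose, with 136 and 145 at 0.5 h, against 36.2 and 39.2 at 0 h (1.90 ± 0.15). The number of folate genes called lower was 8 without replicate 2 of 0 h and also 8 without replicate 1 of 0.5 h.

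General stress genes, those under the control of Msn2 and Msn4, rose in 27 and fell in 1 of 31 cases (median 1.98). PHM7, a membrane protein, read 4509 and 3999.5 at 0.5 h, against 91.3 and 66.1 at 0 h (5.77 ± 0.37, adjusted p = 4.15e-06). SIP18, a protector against drying, read 6492 and 4216 at 0.5 h, against 137 and 75.1 at 0 h (5.69 ± 0.30). OM45 of the mitochondrial outer membrane read 4792 and 5525 at 0.5 h, against 144 and 91.6 at 0 h (5.49 ± 0.26). All 3 were below the lower quartile of all genes at 0 h and far above the array median at 0.5 h. GPP2, a glycerol-3-phosphate phosphatase induced by salt, fell instead, with 242 and 354 at 0.5 h, against 2604 and 2824 at 0 h (−3.21 ± 0.24, adjusted p = 8.34e-06).

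Trehalose genes rose in 6 of 7 cases (median 2.09) and glycogen genes in 12 of 14 (median 1.89), with 0 lower in either. Enzymes of synthesis and of breakdown rose side by side. TSL1 of the trehalose synthase read 4561 and 5202 at 0.5 h, against 503 and 651 at 0 h (3.09 ± 0.35). The trehalase ATH1 read 1203 and 1250.3 at 0.5 h, against 137 and 163 at 0 h (3.03 ± 0.23). The glycogen branching enzyme GLC3 read 3383 and 4252 at 0.5 h, against 288 and 182 at 0 h (4.05 ± 0.34). GAC1, which targets a phosphatase to glycogen synthase, rose by 3.68 ± 0.31.

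Chaperones were called in both directions. In the list of Hsp70, Hsp90, disaggregase and small heat shock proteins 14 of 27 rose and 5 fell. HSP42, a small heat shock protein, read 3349 and 3944 at 0.5 h, against 574 and 563 at 0 h (2.68 ± 0.23). SSA1, a cytosolic Hsp70, read 5695 and 6561 at 0.5 h, against 1319.7 and 1496 at 0 h (2.12 ± 0.21). SSB2, an Hsp70 that binds ribosomes, fell, with 710.4 and 884 at 0.5 h, against 2161 and 2891 at 0 h (−1.66 ± 0.20). The cytosolic chaperonin and prefoldin were called in 3 of 14 cases, all lower, with GIM3 at the head (−1.62 ± 0.22). In the endoplasmic reticulum 5 rose and 5 fell of 15 (33.3% each, near the background). The disulfide isomerase MPD1 rose, with 574 and 709 at 0.5 h, against 148 and 111 at 0 h (2.32 ± 0.20), and ERO1 (−1.22 ± 0.19) and HAC1 (−1.12 ± 0.26), the activator of the unfolded protein response, fell.

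Lists of protein breakdown held more rises than falls. Of 38 proteasome genes 36 rose and 0 fell, by at most 1.68 (median 0.92). ECM29, a proteasome adaptor, read 773 and 919.7 at 0.5 h, against 251 and 276 at 0 h (1.68 ± 0.21). The lid subunit RPN6 read 1716 and 2163 at 0.5 h, against 642 and 605 at 0 h (1.63 ± 0.23). Autophagy genes rose in 17 and fell in 2 of 32 cases. The largest rises were in selective receptors, ATG39 for the nuclear envelope, with 3045 and 2463 at 0.5 h, against 391 and 299.8 at 0 h (3.0 ± 0.18), ATG34 for a vacuolar mannosidase (2.86 ± 0.22) and ATG40 for the endoplasmic reticulum (2.47 ± 0.17). ATG13, a regulator of the starting kinase, fell, with 265 and 241 at 0.5 h, against 563 and 617 at 0 h (−1.22 ± 0.17). Among vacuolar hydrolases and their inhibitors 9 of 13 rose and 2 fell, and among the leading genes were inhibitors. PAI3, of proteinase A, read 1157 and 893 at 0.5 h, against 105 and 66.7 at 0 h (3.60 ± 0.24). PBI2, of proteinase B, read 3473 and 2991 at 0.5 h, against 734 and 455 at 0 h (2.48 ± 0.31).

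Antioxidant genes rose in 16 and fell in 3 of 23 cases. GPX1, a peroxidase, read 949 and 671 at 0.5 h, against 166 and 111 at 0 h (2.56 ± 0.30). Its relative GPX2 read 109.8 and 81.8 at 0.5 h, against 254 and 227 at 0 h (−1.34 ± 0.37), and the call on GPX2 was lost without replicate 1 of 0 h (adjusted p = 0.0539) and without replicate 2 of 0.5 h (adjusted p = 0.0671). In the pentose phosphate pathway 4 of 11 rose and 2 fell (36.4% and 18.2%), so that the share of rises was near the background. TKL2, a minor transketolase, read 2984 and 1541 at 0.5 h, against 94.6 and 44.7 at 0 h (5.04 ± 0.41). SOL4, a phosphogluconolactonase, read 2380.1 and 2023 at 0.5 h, against 116 and 96.6 at 0 h (4.37 ± 0.32). NQM1, a transaldolase homolog, rose by 3.39 ± 0.26. The main transketolase TKL1 fell, with 997 and 1262 at 0.5 h, against 3889 and 4257 at 0 h (−1.86 ± 0.18), as did SOL3 (−1.20 ± 0.21).

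At the cell surface the eisosome and Sur7 family rose in 13 of 16 cases with 0 lower (median 1.52). YNL194C, of the Sur7 family, read 2691 and 3248 at 0.5 h, against 35.9 and 33.8 at 0 h (6.41 ± 0.22, adjusted p = 1.42e-07). FMP45, of the same family, read 2004 and 1621 at 0.5 h, against 60.4 and 35.6 at 0 h (5.28 ± 0.45). LSP1, a core subunit of the eisosome, read 4297 and 4417 at 0.5 h, against 1603 and 1126 at 0 h (1.70 ± 0.19). The rise of the core subunit was the smallest of these. Of 22 proton pump genes 5 were higher and 8 lower (22.7% and 36.4%, beside the background of 30.1% and 32.7%). PMA1, the main proton pump of the plasma membrane, read 617 and 1031 at 0.5 h, against 3429.6 and 4597 at 0 h (−2.32 ± 0.27). Its small regulator PMP1 read 782 and 672 at 0.5 h, against 2189 and 2334 at 0 h (−1.64 ± 0.22).

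Multidrug transporters and their regulators were lower in 16 and higher in 2 of 25 cases (median −0.91). PDR12, an exporter of weak acids, read 342 and 502 at 0.5 h, against 2596 and 3274 at 0 h (−2.81 ± 0.22). QDR2 read 384 and 726 at 0.5 h, against 3146 and 3212 at 0 h (−2.59 ± 0.31). PDR5, a broad drug exporter, read 222 and 351 at 0.5 h, against 823 and 1229 at 0 h (−1.85 ± 0.27). PDR10, a relative of PDR5, rose instead, with 1144 and 1480.3 at 0.5 h, against 561 and 451 at 0 h (1.37 ± 0.23). Among cell wall genes, 14 of 34 fell and 4 rose. The glucan synthase FKS1 read 303 and 500.2 at 0.5 h, against 2003 and 2666 at 0 h (−2.57 ± 0.25). The glucanase EXG1 fell with it (−2.43 ± 0.19), and the stress-induced wall protein SPI1 rose (1.84 ± 0.25).

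Genes of ergosterol synthesis fell in 15 and rose in 7 of 28 cases. ERG7, lanosterol synthase, read 427 and 347 at 0.5 h, against 1589 and 1502 at 0 h (−2.0 ± 0.25). ARE2, which stores sterols as esters, rose, with 439 and 441 at 0.5 h, against 130.4 and 239 at 0 h (1.32 ± 0.31). In fatty acid synthesis and desaturation 3 rose and 4 fell of 12 (25% and 33.3%, near the background, median 0.18). The synthase genes FAS1 (−1.25 ± 0.17) and FAS2 (−1.95 ± 0.16) and the elongase ELO3 fell, ELO3 with 236 and 261 at 0.5 h, against 1029.8 and 1337 at 0 h (−2.24 ± 0.22). SPT23, an activator of the desaturase gene, rose (0.74 ± 0.22), as did the dehydratase PHS1 (0.59 ± 0.23). The call on SPT23 was lost without replicate 1 of 0 h (adjusted p = 0.0964) and without replicate 2 of 0.5 h (adjusted p = 0.093), and that on PHS1 when any 1 of the 4 arrays was left out (adjusted p 0.0636 to 0.209). Inositol and phospholipid genes fell in 15 and rose in 2 of 21 cases. INM1, inositol monophosphatase, read 167 and 173 at 0.5 h, against 1255 and 1566 at 0 h (−3.05 ± 0.20).

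Iron genes were called higher in 10 and lower in 5 of 27 cases (37% and 18.5%, beside the background of 30.1% and 32.7%). FIT2, a wall protein that holds siderophores, read 1712 and 828 at 0.5 h, against 281 and 59.7 at 0 h (3.20 ± 0.62). SIT1, a siderophore transporter, read 1847 and 1283 at 0.5 h, against 372 and 92.7 at 0 h (3.05 ± 0.54). In both genes replicate 2 of 0 h was far below replicate 1, and without it the log2 change of FIT2 was 2.08. The low-affinity transporter FET4 fell, with 85.6 and 80.2 at 0.5 h, against 440.3 and 299 at 0 h (−2.13 ± 0.22), as did the iron-sulfur scaffold ISU2 (−2.51 ± 0.25). In phosphate uptake 13 of 20 genes fell and 2 rose. The sodium-coupled transporter PHO89 rose, with 6293 and 5809 at 0.5 h, against 1905 and 583 at 0 h (2.52 ± 0.43), and without replicate 2 of 0 h by 1.67. The low-affinity transporters PHO90 (−1.80 ± 0.28) and PHO91 (−1.82 ± 0.19) fell.

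Of 42 DNA replication genes 9 rose and 7 fell (21.4% and 16.7%, below both background shares). RFA1, a subunit of the single-strand binding protein, read 881 and 1224 at 0.5 h, against 151 and 161 at 0 h (2.74 ± 0.22). The sliding clamp POL30 read 588 and 631 at 0.5 h, against 131 and 120.3 at 0 h (2.28 ± 0.20). TAH11, the licensing factor Cdt1, fell, with 186 and 206 at 0.5 h, against 731 and 534 at 0 h (−1.67 ± 0.21). The linker histone HHO1 rose the most of 10 histones, with 1452 and 1243 at 0.5 h, against 114 and 122 at 0 h (3.51 ± 0.24).

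Of 27 cyclins and cell cycle regulators 18 were called higher and 1 lower. CDC20, an activator of the anaphase-promoting complex, read 536 and 344 at 0.5 h, against 178 on both arrays at 0 h (1.27 ± 0.26). PCL5, a cyclin of the kinase Pho85, fell, with 1185 and 1119 at 0.5 h, against 3666 and 3855 at 0 h (−1.71 ± 0.16). The count called higher was 5 of 8 left without the dimmest 25% of genes, and 11 without replicate 2 of 0.5 h. The damage list, with ribonucleotide reductase, rose in 8 of 10 cases, and the DNA glycosylase MAG1 read 1089 and 1087 at 0.5 h, against 327 and 227 at 0 h (2.0 ± 0.22).

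Genes of meiotic entry gave 7 rises and 5 falls of 23 (30.4% and 21.7%, so that the share of rises was near the background). RIM4, an RNA-binding protein of meiosis, read 1082 and 1089 at 0.5 h, against 64.0 and 66.5 at 0 h (4.06 ± 0.35). In the Arp2/3 and actin list 11 of 21 rose and 1 fell, ARC35 the most, with 1749 and 1601 at 0.5 h, against 593 and 468 at 0 h (1.67 ± 0.17). In mRNA decay 12 rose and 2 fell of 31. EDC2, an activator of decapping, read 1968 and 2478 at 0.5 h, against 819 and 594 at 0 h (1.66 ± 0.19). Nuclear transport and pore genes fell in 18 and rose in 2 of 38 cases, and the tRNA exporter LOS1 read 264 and 230.0 at 0.5 h, against 897 and 1099 at 0 h (−2.01 ± 0.24).

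The list of haploid-specific and mating genes, which is not the same set as the 13 markers checked above, gave 2 rises and 8 falls of 22 by limma. Without the dimmest 25% of genes 1 member was left, with an unadjusted p above 0.05, so 0 falls were called. NEJ1, which haploid cells use for end joining, rose, with 122 and 75.6 at 0.5 h, against 12.9 and 17.6 at 0 h (2.67 ± 0.37). The secretory pathway was called higher in 8 and lower in 6 of 41 cases (19.5% and 14.6%, below both background shares), with log2 changes between −0.67 and 0.63. Its count of higher genes was 4 without replicate 2 of 0 h and 3 without either array of 0.5 h.

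A set of 26 gene pairs that serve 1 function, many with a form used in glucose and a form used without it, was read side by side. In 8 pairs the members were called in opposite directions, in 7 they were called in the same direction, and in 11 a single member was called. With 30.1% of all genes higher and 32.7% lower, pairs of unrelated genes would also give opposite, same and single calls. The pairs were also picked by hand, so these counts are a description and not a result about pairs. ADH2 rose while ADH1, the fermentative enzyme, was not called (4701 and 4745 at 0.5 h, against 6009.7 and 5374 at 0 h, −0.27 ± 0.16). ACS1 rose while ACS2, the form used in glucose, was not called (1213 and 1526 at 0.5 h, against 1489.6 and 1460.2 at 0 h, −0.12 ± 0.17). PGM2, the main phosphoglucomutase, rose, with 2516 and 3293 at 0.5 h, against 241 and 249 at 0 h (3.55 ± 0.36), and PGM1 was not called (−0.27 ± 0.15). HSP82, the inducible Hsp90, rose, with 2639.9 and 2909 at 0.5 h, against 711 and 839.5 at 0 h (1.84 ± 0.20), and the constitutive HSC82 was not called (0.20 ± 0.17). Of the Hsp110 pair SSE2 rose (0.55 ± 0.20) and SSE1 was not called (−0.34 ± 0.18). HMG2, a reductase of sterol synthesis, rose (0.60 ± 0.18) and HMG1 was not called (0.35 ± 0.21). GND2 of the pentose phosphate pathway rose, with 504 and 148 at 0.5 h, against 100.3 and 30.6 at 0 h (2.30 ± 0.61), and GND1 was not called (0.27 ± 0.23). MPC2, the partner of MPC3, was not called (−0.22 ± 0.17), nor was ANB1 (−0.27 ± 0.58), the other form of HYP2. A fall was the single call in TDH3, the main glyceraldehyde 3-phosphate dehydrogenase (−0.61 ± 0.19, against −0.25 ± 0.18 for TDH1), and in the Hsp70 gene SSA2 (−0.81 ± 0.23, against −0.29 ± 0.19 for SSA4).

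Several of these calls were lost with an array left out. The call on SSE2 was lost without replicate 1 of 0 h (adjusted p = 0.2), without replicate 1 of 0.5 h (adjusted p = 0.0669), without replicate 2 of 0.5 h (adjusted p = 0.17) and with quantile normalization (adjusted p = 0.0575). The call on HMG2 was lost without replicate 1 of 0 h (adjusted p = 0.0838) and without replicate 2 of 0.5 h (adjusted p = 0.109). That on GND2 was lost without replicate 2 of 0 h (adjusted p = 0.0719) and without replicate 1 of 0.5 h (adjusted p = 0.066). For TDH3 it was lost without replicate 2 of 0 h (adjusted p = 0.098) and without replicate 1 of 0.5 h (adjusted p = 0.109). For SSA2 it was lost without replicate 1 of 0.5 h (adjusted p = 0.0995).

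Opposite calls were made in pairs given above for decarboxylase (PDC6 and PDC1), pyruvate kinase, hexokinase, transketolase, Ras and glutamate dehydrogenase. COX5A, the form of subunit 5 used in air, rose, with 2740.5 and 3120.1 at 0.5 h, against 769 and 941 at 0 h (1.78 ± 0.17), while COX5B fell. POR1, the main porin, rose, with 7404 and 6954 at 0.5 h, against 4138 and 4210.1 at 0 h (0.78 ± 0.17), while POR2 fell (−0.74 ± 0.25), and the call on POR2 was lost without replicate 1 of 0 h (adjusted p = 0.153) and without replicate 2 of 0.5 h (adjusted p = 0.176).

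In the pairs called in 1 direction, the cytochromes c both rose. CYC1, the main form, read 431 and 1142 at 0.5 h, against 115 and 219.9 at 0 h (2.14 ± 0.42). CYC7 read 126 and 344 at 0.5 h, against 65.9 and 80.4 at 0 h (1.52 ± 0.44), and the call on CYC7 was lost without replicate 1 of 0 h (adjusted p = 0.0725) and without replicate 2 of 0.5 h (adjusted p = 0.106). Both glycogen synthases rose, GSY1 by 3.49 ± 0.39 and GSY2 by 1.71 ± 0.29. The citrate synthase CIT1 rose, with 5834 and 6494 at 0.5 h, against 1284 and 1022 at 0 h (2.43 ± 0.20), as CIT2 did, and the ADP/ATP carrier AAC1 rose (1.09 ± 0.25) as PET9 did. Both large subunits of ribonucleotide reductase rose, RNR1 by 1.18 ± 0.30 and RNR3 by 1.23 ± 0.28, and the call on RNR1 was lost without replicate 1 of 0 h (adjusted p = 0.0562) and without replicate 2 of 0.5 h (adjusted p = 0.0564). Both enolases fell, and PMA2 fell (−1.59 ± 0.19) with PMA1.

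**Figure D4:**
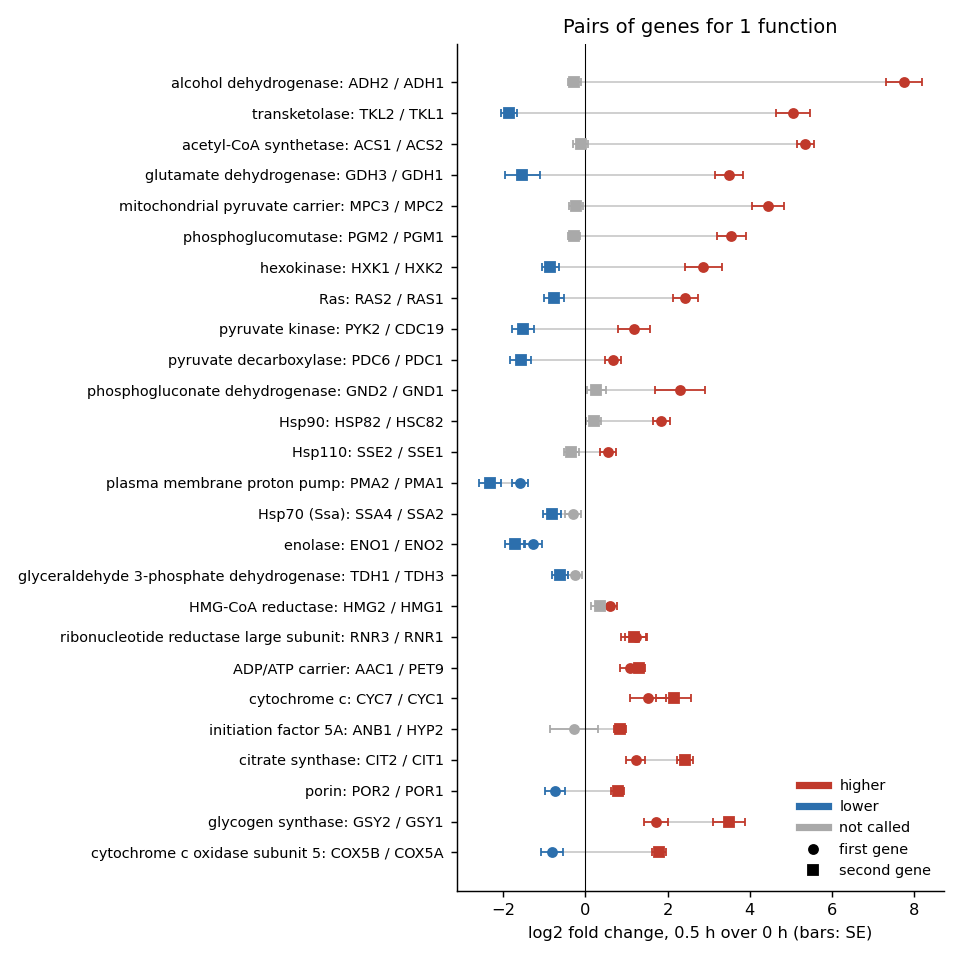
Log2 fold change at 0.5 h over 0 h with its SE for both genes of 26 pairs, the first gene as a circle and the second as a square, coloured by the limma call and ordered by the difference between them. ADH2 and ADH1 are furthest apart, at 7.75 and −0.27.

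A list of 18 proteins that the study treats as hubs of its interaction network, or as transporters that changed often, was read through their mRNA. The list holds only a part of the study's hubs, so its counts do not describe the hubs as a whole. Of the 18, 5 rose and 8 fell (27.8% and 44.4%, beside the background of 30.1% and 32.7%). HXT1 fell and HXT5 and FMP45 rose, as given above. HSP30, a chaperone of the plasma membrane, was not called (589 and 832 at 0.5 h, against 429 and 616 at 0 h, 0.45 ± 0.22). The iron permease FTR1 was not called either (422 and 348 at 0.5 h, against 561 and 215 at 0 h, 0.14 ± 0.43), and its arrays at 0 h were more than 2-fold apart. RBD2, a rhomboid protease, was among the uncalled (417 and 452 at 0.5 h, against 569 and 332 at 0 h), as was the polyamine exporter TPO3 (45.8 and 54.5 at 0.5 h, against 35.1 and 96.4 at 0 h). INA1 fell, with 15.5 and 24.4 at 0.5 h, against 134 and 100.2 at 0 h (−2.57 ± 0.51). SNQ2 (−1.11 ± 0.17), YOR1 (−0.83 ± 0.19) and TPO1 (−1.46 ± 0.23), all exporters, fell as PDR5 did. TPO2 was lower (−1.59 ± 0.32) but is uncertain, because its probe set is shared. YBL029C-A was called higher, with 990.1 and 916 at 0.5 h, against 657 and 447 at 0 h (0.81 ± 0.21), and its call was lost without replicate 2 of 0 h (adjusted p = 0.0695).

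The 2 arrays of a time did not differ evenly across genes. At 0.5 h 86 genes and at 0 h 98 genes had replicates more than 2-fold apart. At 0.5 h replicate 1 was the higher in 55 of the 86, and at 0 h replicate 1 was the higher in 89 of the 98. In peroxisomal fatty acid oxidation replicate 1 was above replicate 2 in 16 of 18 genes at 0.5 h and in 15 of 18 at 0 h. For acetate and lactate uptake with the carnitine shuttle it was above in 5 of 9 at 0.5 h and in 9 of 9 at 0 h. What these gaps come from was not tested. At 1 h POT1 read 3006 and 3442 and FBP1 read 2877 and 1707, and in both genes replicate 2 was nearer to replicate 1 than at 0.5 h.

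Between 0.5 h and 1 h no difference passed the test. In this comparison 0 genes were called higher (0%) and 0 lower (0%) by limma, 90 genes had an unadjusted p under 0.05, and the smallest adjusted p was 1. ALP1, CDA2 and TIP1 were the 3 genes that differed by at least 2-fold, named here after their values were seen. ALP1, a basic amino acid transporter, read 201 and 34.5 at 0.5 h, against 233 and 192 at 1 h. TIP1, a cell wall protein, read 3867 and 316 at 0.5 h, against 5367 and 2662 at 1 h. In both, replicate 2 of 0.5 h stood far below the other arrays. The 90 genes with an unadjusted limma p under 0.05 were fewer than this threshold would give by chance among 5449 independent genes. They are therefore no sign of change. With 2 arrays a time, changes smaller than the spread between arrays cannot be seen, so the times are not shown to be alike.

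Set against 4 h, 766 genes (14.1%) were higher and 817 (15%) were lower at 0.5 h, and against 12 h 1251 genes (23%) were higher and 1340 (24.6%) were lower at 0.5 h. These comparisons share the arrays of 0.5 h with the one above. Of 9 genes for acetate and lactate uptake and the carnitine shuttle, 9 were higher at 0.5 h than at 12 h (median 2.09). For peroxisomal fatty acid oxidation 16 of 18 were higher (median 2.17) and for the proteasome 34 of 38 (median 0.73). ADY2 read 1655 and 1608 at 12 h and POT1 read 102 and 81.3, well under their values at 0.5 h.

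Ribosomal genes went the other way. Of 75 large subunit proteins 75, and of 48 processome genes 47, were lower at 0.5 h than at 12 h (medians −1.29 and −1.96). NSR1 read 1536 and 1160.2 at 12 h. DBP2 read 1565 and 809 at 12 h, above its level at 0 h on both arrays.

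Of the 17 genes of the TCA cycle, 2 were higher and 4 lower at 0.5 h than at 12 h (median −0.13, beside the background of 23% and 24.6%), and of 14 genes of the ATP synthase 0 were higher and 1 lower. CYC1 was far higher later, with 2885 and 2280.4 at 4 h and 3031 and 3204 at 12 h. GPP2 and HIP1, both low at 0.5 h, were higher at 12 h, GPP2 with 1893 and 1329 and HIP1 with 721 and 649.

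A few genes that fell by 0.5 h were lower still at later times. HXT1 read 90.4 and 215 at 4 h and 19.0 on both arrays at 12 h. MIG2 read 8.16 and 13.8 and HXT3 read 127 on both arrays at 12 h. All 3 were higher at 0.5 h than at 12 h, with adjusted p values from limma of 9.29e-05 for HXT1, 0.000985 for MIG2 and 0.000161 for HXT3.

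**Figure D5:**
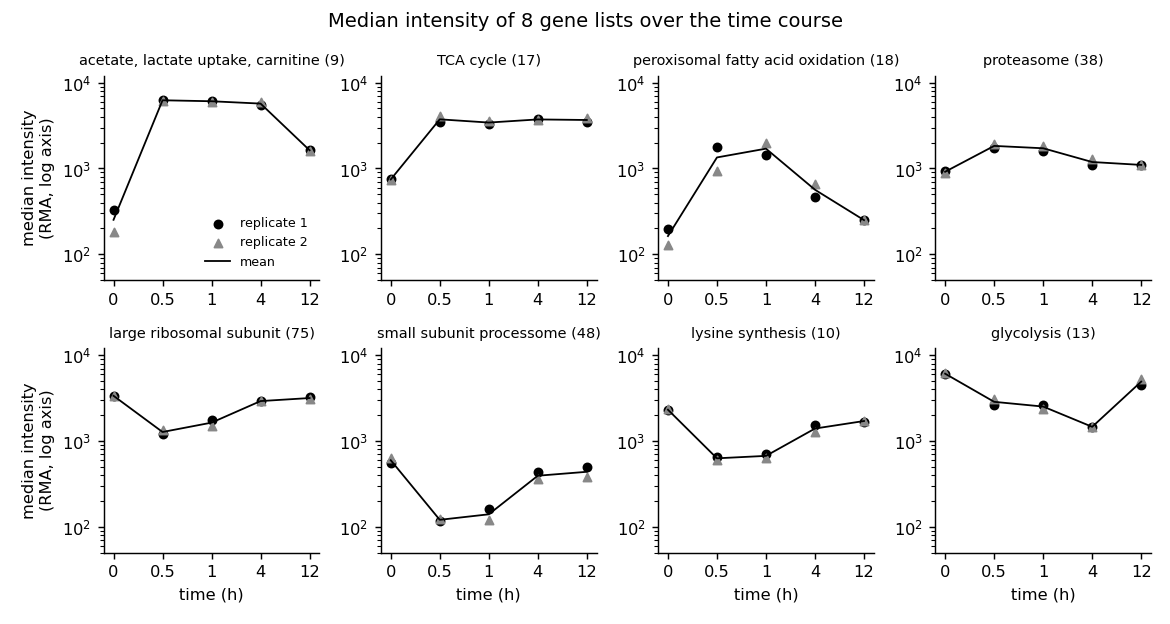
Median intensity (log axis) of the members of 8 gene lists at each of the 5 times (evenly spaced, not to scale), with replicate 1 as a circle, replicate 2 as a triangle and a line through their mean. The uptake and fatty acid oxidation genes are high in the first hour and lower at 12 h, and glycolysis is lowest at 4 h. The ribosomal genes dip and come back to near their level at 0 h. The processome and lysine genes dip and come back in part, with median log2 changes at 12 h over 0 h of −0.45 and −0.61.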

How the data were processed

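RNA of the strain pool was extracted with a RiboPure kit, copied into cDNA from an oligo(dT) primer, labelled with biotin and hybridised to Affymetrix yeast arrays. Per the labels and the study's methods, the authors read the arrays with MAS 5.0 and normalized them with RMA from BioConductor, and the versions are not given in the sources used here. Deposited values are intensities on a linear scale, taken here to log2. Each column was assigned to its sample by the label. Of 5716 probe sets, 5498 had 1 gene symbol in the platform annotation, of which 12 were updated, and 218 had none. Where a gene had several probe sets the brightest over the 10 arrays was kept and 49 were set aside. For 115 genes the probe set is shared with other sequences.

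All 10 arrays were fitted with limma 3.58.1 in R 4.3.3, with 1 mean per time and empirical Bayes variances (5 residual degrees of freedom, 4.33 prior degrees of freedom, prior SD 0.197 on the log2 scale). Genes with a Benjamini-Hochberg adjusted p under 0.05 over all 5449 genes were called, with no minimum fold. On simulated data with 200 of 5449 genes changed, the fit for 0.5 h against 0 h recovered 86% of 2-fold and 100% of 4-fold changes, and 4.62% of calls were false. With 2 arrays a time, the number of arrays limits the precision.

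Genes were read in 75 lists of 1704 entries, 37 of which were not measured. Members and lists were chosen with earlier results of these data known, so lists are given by counts and medians with no test of their own. Genes named in the text were taken from several groups. The first was the 15 largest rises and 15 largest falls among called genes. These had no overlap between arrays and were above the median intensity in the brighter group. Each list gave up to 4 members with the largest called change and up to 2 called against its majority. Both genes of each pair were included. So were all members of 5 lists: carbon source transcription factors, hexose transporters, Ras and protein kinase A, Snf1, and some of the study's hubs and transporters. A gene that was not called was named only if it belonged to a pair or to these 5 lists, with exceptions stated in the text. Alternatives were a fit to 4 arrays, the replicate number as a block, each array left out, median centring, quantile normalization, removal of the dimmest 25% of genes, an offset of 32, the mean over probe sets, removal of shared probe sets, and an intensity trend with a robust prior. Promoter and protein sequences were not analysed here. Figures were drawn in Python 3.11.15.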

Additional observations from a re-analysis of the deposited data

Results flagged for a closer look

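Probe sets without a gene name in the annotation lay outside the comparison of named genes. Of 218 such probe sets, 81 rose and 52 fell by 0.5 h in the limma fit, with p-values adjusted over all 5716 probe sets. Among the named genes 30.1% rose and 32.7% fell, so many calls are also found here without anything particular to unnamed probe sets. Their median intensity was 306, and the brightest reached a mean of 5319. With 2 arrays a time, no array could be tested as standing apart from the others of its time.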

How the results depend on the processing

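The count of genes called at 0.5 h against 0 h, 3426, was 3423 in a fit to the 4 arrays alone, between 2910.0 and 3022 with 1 array left out, 3470.0 after median centring, 3505 after quantile normalization, 3448 with 32 added, 3428 with probe sets averaged, 3394 without shared probe sets and 3434 with an intensity trend and robust prior. Rises made up 47.2% to 49.9% of calls throughout. Without the dimmest 25% of genes, which leaves 4087 genes, 2807 were called, and with fewer members tested the counts higher were 2 for hexose transporters, 3 for galactose, sucrose and maltose use and 5 for cyclins, and the count lower was 0 for haploid-specific genes. With 1 array left out, counts higher ran from 10 to 18 for mitochondrial import, from 4 to 6 for Snf1, from 11 to 15 for cyclins and from 3 to 6 for the secretory pathway, and counts lower from 8 to 13 for folate and from 9 to 11 for mitochondrial carriers, where fewer samples carry the test. Where this left a time with 1 array, that array was assumed to vary like the others. Of 406 named genes called, 23 to 32 lost their call with 1 array left out and 0 to 3 under any other alternative, and 0 changed direction. With the replicate number as a block, 3736 genes were called (1784 higher, 1952 lower), including all 3426. Arrays with the same number deviated together with r = 0.38 between 0 and 0.5 h and 0.03 to 0.56 over all pairs of times, but they share a number and nothing in the labels pairs them. No depth is known for arrays, and dim genes carry the least certain folds.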
